A study of Mus musculus with 8 samples.

Results

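Long intergenic noncoding RNAs (lincRNAs) were followed in cultured mouse pre-B cells through the regions that an Agilent array design lists for them. The members were the array probes whose description begins with lincRNA and whose spot was called well above background by the scanner software on both arrays of at least 1 of the 4 groups. By this rule 7419 of 16251 lincRNA probes were kept (45.7%), and they fell in 3254 of the 4622 regions on the array. The whole array held 55681 non-control probes, of which 30965 passed the same rule. The choice of members used the detection calls, so how many were detected, and in which group, is given here as a description.

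RNA came from wk3, a pre-B cell line that carries the SLP-65-/- genotype, so every culture, control or not, lacked the adaptor protein SLP-65. Cells had been infected with a retroviral vector that encoded either a scrambled sponge or a sponge against the miR-15 family, and infected cells were selected with puromycin. Each kind of cell was grown in excess IL-7 or was kept for 36 h without it, which the submitters used to start pre-B cell differentiation. This gave 4 groups of 2 arrays each, with both constructs in both media. Independently generated clones were used for each repetition, and all of them derive from 1 line. The RNA was a bulk extract, in which fewer cells with a transcript and less of it per cell cannot be told apart.

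LincRNAs are transcripts that lie between protein-coding genes and have no long open reading frame. Some have known roles in the nucleus: Neat1 builds paraspeckles, Malat1 is held in nuclear speckles, and Xist silences an X chromosome. Others are host transcripts from which microRNAs or small nucleolar RNAs are cut, and many have no known function. IL-7 is the cytokine that keeps pre-B cells dividing, and its loss lets them leave the cycle and rearrange light chain genes. A sponge is a transcript with many sites for a microRNA family, which it binds and so withholds from its targets. The 6 family members below are shown because they share the seed (bases 2 to 8, in capitals), which defines the family. They are mature sequences from RefSeq (GRCm38.p6 table).
miR-15a-5p: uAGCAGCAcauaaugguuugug
miR-15b-5p: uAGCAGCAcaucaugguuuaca
miR-16-5p: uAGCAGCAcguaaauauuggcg
miR-195a-5p: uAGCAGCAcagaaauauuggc
miR-322-5p: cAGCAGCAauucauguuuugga
miR-497a-5p: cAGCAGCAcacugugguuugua

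Each lincRNA region was read by probes of 60 bases, and a region is named below by its mm9 interval and strand. The probes printed first are examples from regions described below, not a ranking of regions by their change, with every array value given further on. Probe sequences are those of the scanner files, in the direction of the region's strand.
NEAT1, chr19:5842726-5842785: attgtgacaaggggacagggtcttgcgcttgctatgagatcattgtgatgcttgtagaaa
Region of 5430401H09Rik, chr12:32781622-32781681: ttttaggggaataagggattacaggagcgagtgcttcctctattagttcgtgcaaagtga
Region of D430020J02Rik, chr12:117638070-117638129: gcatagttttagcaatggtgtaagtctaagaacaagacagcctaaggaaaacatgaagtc
Region beside Chek1, chr9:36510941-36511000: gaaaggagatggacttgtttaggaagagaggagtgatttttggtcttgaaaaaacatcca

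The reverse strand of chrX:50087925-50101700 is shown apart because its probes overlap microRNA hairpins. Capitals mark the bases that a probe shares with the RefSeq hairpin. Of its probes, 3 share 44, 46 and 31 bases with the Mir363 hairpin, and another lies whole (60 bases) within Mir92-2.
chrX:50094854-50094913, Mir363: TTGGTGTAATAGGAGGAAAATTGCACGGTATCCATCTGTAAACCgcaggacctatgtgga
chrX:50094899-50094958, Mir363: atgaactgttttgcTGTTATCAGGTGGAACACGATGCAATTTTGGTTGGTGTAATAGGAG
chrX:50094914-50094973, Mir363: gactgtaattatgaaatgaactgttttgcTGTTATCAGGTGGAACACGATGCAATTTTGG
chrX:50095036-50095095, Mir92-2: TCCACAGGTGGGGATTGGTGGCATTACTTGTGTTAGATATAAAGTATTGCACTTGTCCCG
The 3p mature microRNAs cut from these hairpins, printed here, have a seed of the same letters, in capitals.
miR-363-3p: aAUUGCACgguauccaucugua
miR-92a-3p: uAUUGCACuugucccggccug

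Across the arrays 50.6% to 56.6% of 59305 spots were well above background, signal at the 75th percentile came to 297 to 410 intensity units over a median background of 17 to 20, and no spot was saturated. The arrays shared 1 slide and 1 scan. The first of the 2 position numbers in the array names was 1 for every culture with IL-7 and 2 for every culture without. The second was 1 or 2 on every scrambled array and 3 or 4 on every sponge array, in both media. Position therefore cannot be told apart from IL-7 by the first number, or from the construct by the second. The B-lineage genes Cd79a, Ebf1 and Pax5 were well above background on all 8 arrays. Myeloid markers (5 of 6 kept) had a summed level of 3.80 to 4.78 over the arrays, on the log2 scale used below, and were highest in scrambled cells without IL-7, and their part in the results was not tested. Of the other lists, 3 of 6 T cell markers, 3 of 4 NK markers, 2 of 4 erythroid and 1 of 4 fibroblast markers were kept.

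LincRNA probes were dimmer than the rest of the array. Levels below are log2 signals relative to the 75th percentile of the same array, which is 0 on this scale. Over the 5380 lincRNA probes well above background on all 8 arrays the median level was -2.25, against 0.92 over the other 20765 such probes, and 1007 of them (18.7%) lay above the 75th percentile against 59.7% of the others. All 8 arrays called 33.1% of lincRNA probes and 52.7% of the others. The members on all 8 arrays are the set used for counts below, because a probe detected in 1 group only had to differ. Members well above background on exactly 2 arrays had a median highest signal of 15.9 intensity units. Those just outside the rule, seen on at least 1 array, had 15.5. The number of members detected on both arrays was 5665 in scrambled cells with IL-7, 6342 in sponge cells with IL-7, 6915 in scrambled cells without and 6866 in sponge cells without.

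The brightest lincRNA probe was on the reverse strand of chr17:17481706-17482457, with values of 8.92, 8.89, 8.92 and 9.0 on the IL-7 arrays (scrambled, then sponge) and 8.50, 8.51, 8.74 and 8.76 without. It fell by 0.40 ± 0.07 (log2 difference ± SE) in scrambled cells after withdrawal, with adjusted p = 0.00632, as did 1 of the other 2 probes of its region. The other 5 of the 6 brightest also fell in that comparison, by 0.34 to 1.33. Most regions rested on few probes: 1379 of 3254 had 1 kept probe and 708 had 2, while 17 had 10. The median region was 11276 bases long, and 1335 regions overlapped another kept region on the same strand, so neighbouring entries can read 1 transcript.

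Withdrawal of IL-7 in scrambled cells asks which lincRNAs change as the pre-B cells lose their growth signal. Of the 5380 lincRNA probes on all 8 arrays, 1329 (24.7%) were higher and 713 (13.3%) lower at an adjusted p under 0.05 (limma, Benjamini-Hochberg over all 30965 kept probes). Over all 26145 probes on all 8 arrays the shares were 21.8% higher and 28.4% lower. The share of lincRNA probes that rose was thus near that of the whole array, while the share that fell was smaller. Their median change was 0.11 against -0.04 over all probes, and 386 were called higher and 167 lower past 2-fold, against 1261 and 1961 of the 26145. By region, 801 of 3254 had probes called higher only, 479 had probes called lower only, and a further 51 had probes called in each direction. Without scrambled arrays that lack IL-7 the count fell most: of 2453 members called in all, 1488 were called without replicate 1 and 1323 without replicate 2 of that group.

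Level and base composition went with these shares. Among probes above a level of 2, 41.3% of 361 lincRNA probes and 47.3% of 7836 others were lower after withdrawal. In the same bin 27.7% and 16.8% were higher. At levels from 0 to 2, 35.4% of lincRNA probes were higher and 19.2% lower, against 25.7% and 30.7% of others. From -1 to 0, 33.6% of lincRNA probes and 26.8% of others were higher. These shares were nearer at lower levels: 28.9% and 27.3% from -2 to -1, and 24.0% and 22.7% from -3 to -2. Below -3 they were 15.6% and 14.5%. Over these bins below 0, 9.04% to 14.3% of lincRNA probes were lower, against 11.7% to 28.1% of others. LincRNA probes with under 40% G and C had a median change of 0.29, and those with 55% or more had -0.08. Other probes had -0.02 and -0.15 in the same bins of base composition. The part of base composition in the result was not tested.

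**Figure D1:**
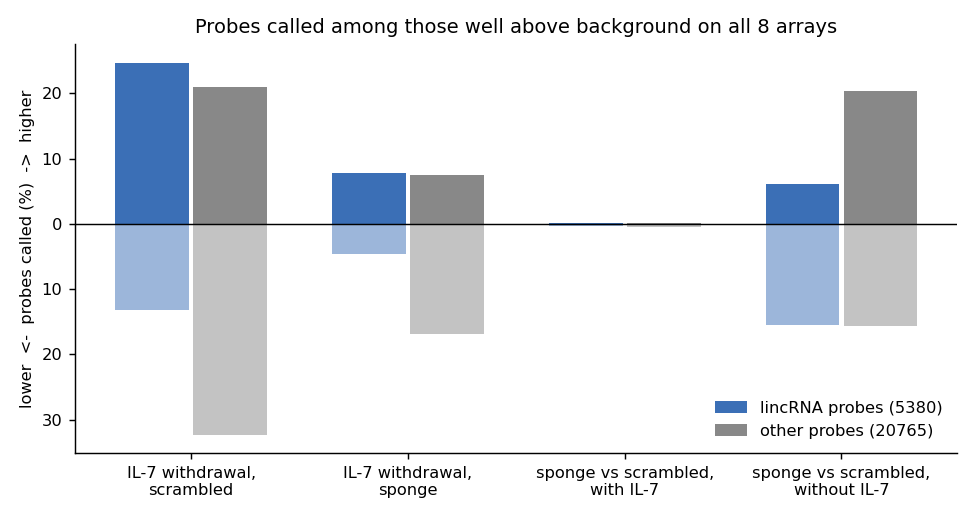
Percent of probes called higher (above 0) or lower (below 0) at an adjusted p under 0.05 in 4 comparisons, for 5380 lincRNA probes (blue) and 20765 other probes (grey), all well above background on all 8 arrays. In scrambled cells after IL-7 withdrawal 24.7% of lincRNA probes were higher and 13.3% lower; with IL-7 the sponge comparison has almost no bar.

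NEAT1, the architectural RNA of paraspeckles, rose after withdrawal on all 5 of its probes. The probe printed above read 3.58 and 3.69 in scrambled cells with IL-7, 4.81 and 4.94 without, 3.61 and 3.45 in sponge cells with IL-7, and 4.17 and 4.13 without. Every array without IL-7 was above every array with it, and those of scrambled cells were highest. The rise was 1.24 ± 0.10 in scrambled cells (adjusted p = 0.000473) and 0.62 ± 0.10 in sponge cells (adjusted p = 0.0116). Over the 5 probes it ranged from 1.06 to 1.24 in scrambled and from 0.62 to 0.67 in sponge cells. Without IL-7, sponge cells were lower than scrambled cells on all 5 probes, by 0.63 to 0.75.

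NEAT2, the array's name for Malat1, which lies next to Neat1, rose further. A probe of it read 1.12 and 1.61 in scrambled cells with IL-7 and 3.02 and 3.23 without, and in sponge cells 1.86 and 1.47 with and 3.07 and 2.56 without. The groups with and without IL-7 did not overlap in either construct. The 3 probes rose by 1.43 to 1.76 in scrambled cells and by 1.06 to 1.15 in sponge cells, with adjusted p = 0.00282 for that probe in scrambled cells and 0.0291 in sponge cells. No NEAT2 probe passed the test between the constructs without IL-7, where differences were -0.46 to -0.31.

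The other lincRNAs with names of their own moved less. TUG1, which was bright on all 5 probes (levels 1.26 to 3.23), differed by 0.05 to 0.27 after withdrawal in scrambled cells and passed no test. HOTAIR (1 of 5 probes kept), NRON (2 of 5), PINC (1 of 5) and KCNQ1ot1 (3 of 5) also passed none. The KCNQ1ot1 region's probes lie on the strand opposite to the array's own Kcnq1ot1 gene probe. BRN1-A fell by 1.05 ± 0.23 on 1 of its 2 kept probes (adjusted p = 0.0127). Of the 5 XIST probes 1 was kept. It was not well above background on either scrambled array with IL-7, and was at least 1.27-fold higher without (adjusted p = 0.00976). Such "at least" values set the brighter group's mean against the lowest signal called well above background on each array, or the dim probe's own value where that is higher.

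**Figure D2:**
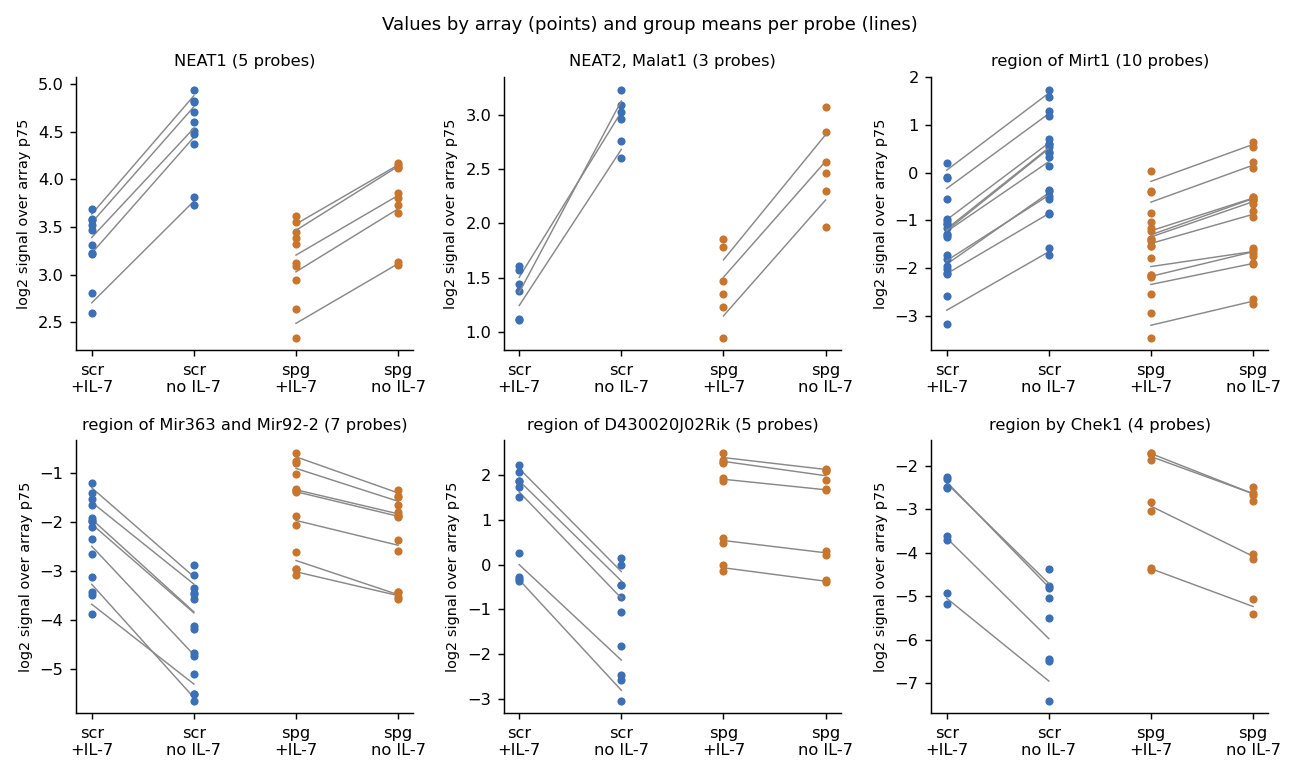
Log2 signal over the array's 75th percentile (y axis) for every kept probe of 6 regions in scrambled (scr, blue) and sponge (spg, orange) cells with and without IL-7; points are single arrays and grey lines join the means of a probe's 2 arrays. NEAT1, NEAT2 and the Mirt1 region rise without IL-7, while the lower 3 regions fall much further in scrambled than in sponge cells.

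The largest rises from background came from 2 places. The reverse strand of chr12:32781477-32808567, where the named transcript 5430401H09Rik lies, was not well above background on any array with IL-7. Its printed probe read -6.79 and -7.06 in scrambled cells with IL-7 and -2.68 and -2.16 without. In sponge cells it read -7.16 and -6.79 with and -4.99 and -4.54 without. The RNA was at least 5.29-fold higher without IL-7 in scrambled cells (adjusted p = 0.000336) and at least 1.34-fold higher in sponge cells (adjusted p = 0.00565). The sponge level without IL-7 was lower than the scrambled one by 2.35 ± 0.25 (adjusted p = 0.00213). All 3 probes of the region were called in these 3 comparisons, and the gene probe of 5430401H09Rik rose by 3.89 in scrambled cells (adjusted p = 0.000322).

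The second place is a stretch of chromosome 10. Its forward strand region chr10:6480075-6603900 had a probe that read -5.10 and -5.52 in scrambled cells with IL-7, and -1.91 and -1.78 once it was withdrawn, and -5.35, -6.35, -4.34 and -3.62 in the same order in sponge cells. It was at least 7.89-fold higher without IL-7 in scrambled cells (adjusted p = 0.00126) and at least 2.31-fold higher in sponge cells (adjusted p = 0.0253). A probe of that region seen on all 8 arrays rose by 1.63 ± 0.17 in scrambled cells (adjusted p = 0.00105) and differed by 0.29 ± 0.17 in sponge cells (adjusted p = 0.294). The nearest named gene, Plekhg1, was 97143 bases away, and its own probe did not pass (1.65, adjusted p = 0.141). Closer to the chromosome's start, a probe on the reverse strand of chr10:6081900-6105500 rose by 2.91 ± 0.42 in scrambled cells (adjusted p = 0.00308), from a signal that 1 of the 2 scrambled arrays with IL-7 called well above background, and the forward strand of chr10:6103888-6104114 rose by 2.23 ± 0.22 (adjusted p = 0.000817). Mthfd1l, the named gene nearest to both, encodes a mitochondrial enzyme of folate metabolism and fell by 2.22 (adjusted p = 0.000322).

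The largest rise in scrambled cells among the members seen on all 8 arrays was on the reverse strand of chr10:84010161-84016083. Its 1 kept probe read -4.07, -4.25, -4.12 and -4.82 on the IL-7 arrays (scrambled, then sponge) and -1.52, -1.26, -2.90 and -2.53 without. The rise was 2.77 ± 0.26 in scrambled cells (adjusted p = 0.000732) and 1.76 ± 0.26 in sponge cells (adjusted p = 0.00981). Ckap4, 20994 bases away on the same strand, did not pass in either (-0.19 and -0.44). The reverse strand of chr3:65729664-65731697, 19126 bases from the cyclin L gene Ccnl1, rose by 2.13 ± 0.10 in scrambled cells (adjusted p = 0.000322) and by 1.68 ± 0.10 in sponge cells (adjusted p = 0.00257), and 2 of its 3 probes passed in both. The forward strand of chr17:80133213-80144417 rose by 2.58 ± 0.26 in scrambled cells, on its 1 kept probe. On the forward strand of chr17:29378878-29379589 the 2 kept probes moved in opposite directions in scrambled cells: 1 rose by 2.34 ± 0.18 (adjusted p = 0.000475) and the other fell by 0.61 ± 0.16 (adjusted p = 0.0257).

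A probe of the region chr15:61984389-62102500, on the strand opposite to the oncogene-linked noncoding gene Pvt1, read -0.32, 0.02, -0.13 and -0.79 with IL-7 and 2.32, 2.54, 0.63 and 0.74 without. It rose by 2.58 ± 0.24 in scrambled cells (adjusted p = 0.000713). Of the 10 probes of that region 3 were kept, and neither of the other 2 passed. The Pvt1 gene probe differed by 0.22 (adjusted p = 0.15). Of the region chr18:69923410-69965360 only 1 of 5 probes was kept, and it rose by 2.61 ± 0.17 in scrambled cells (adjusted p = 0.000357). Tcf4, the E protein gene 75789 bases from it on the same strand, rose by 0.91 (adjusted p = 0.000515).

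A pair of regions was read by 10 probes each, which moved in the same direction. The reverse strand of chr19:53517903-53540753, where Mirt1 lies, rose on 10 of 10 probes in scrambled cells, by 1.22 to 1.71, and without IL-7 it was lower in sponge than in scrambled cells on 10 of 10, by 1.03 to 1.23. Its probe at chr19:53518891-53518950 read -1.82 and -2.02 with and -0.49 and -0.36 without IL-7 in scrambled cells, and -2.19, -2.16, -1.74 and -1.58 in the same order in sponge cells. In scrambled cells the groups were well apart, and in sponge cells the gap was small (0.52 ± 0.11, adjusted p = 0.0253). The region's 10 probes rose by 0.32 to 0.78 in sponge cells, and 7 of them passed. The forward strand of chr17:26911397-26917047, 2110 bases from Crebrf, a regulator of the unfolded protein response, rose on 10 of 10 probes in scrambled cells (1.09 to 1.26) and in sponge cells (0.74 to 0.97). Without IL-7 it was lower in sponge cells on all 10 (by 0.67 to 0.84). The named genes rose too: Mirt1 rose by 1.86 and Crebrf by 1.35 in scrambled cells (adjusted p = 0.000336 and 0.0028).

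Falls after withdrawal included the microRNA host region on the X chromosome printed above. The probe at chrX:50094914-50094973 read -2.35 and -2.65 in scrambled cells with IL-7 and -4.68 and -4.74 without, and in sponge cells -2.07 and -1.88 with and -2.37 and -2.59 without. Only the scrambled arrays without IL-7 stood apart. All 7 probes fell in scrambled cells, the 5 seen on all 8 arrays by 1.67 to 2.21, and the other two were not well above background there without IL-7. In sponge cells the same 5 probes differed by -0.73 to -0.49, and 3 of the 7 passed. Without IL-7 sponge cells were higher on all 7 probes, by 1.68 to 2.23 on those 5, and with IL-7 none of the 7 passed (0.53 to 0.69 on the 5). On the forward strand of the interval 1 of 5 kept probes fell, and the other 4 differed by -0.36 to -0.13. The array measures the host transcript, not the mature microRNA.

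The reverse strand of chr12:117623500-117643575, where D430020J02Rik lies, fell on 5 of 5 probes in scrambled cells, by 2.14 to 2.47, and passed on none in sponge cells (-0.32 to -0.23). Its printed probe read -0.32 and -0.36 with and -2.57 and -3.05 without IL-7 in scrambled cells, and -0.14, 0.00, -0.35 and -0.39 in the same order in sponge cells. Without IL-7 the sponge cells were higher by 2.44 ± 0.16 (adjusted p = 0.00143). The region beside Chek1, the checkpoint kinase gene 679 bases away on the same strand, fell on its 4 kept probes. The printed one went from -2.25 and -2.49 to -4.76 and -4.82 in scrambled cells and from -1.72 and -1.71 to -2.48 and -2.80 in sponge cells, which are falls of 2.42 ± 0.14 (adjusted p = 0.000336) and 0.92 ± 0.14 (adjusted p = 0.00982). The Chek1 probe itself did not pass (-0.66, adjusted p = 0.0776).

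Further regions that fell lay in or beside named genes. The forward strand of chr8:40100925-40196350, in Tusc3, a subunit of the oligosaccharyltransferase, fell on 4 of 5 probes, with 1.77 ± 0.10 at the probe of chr8:40134502-40134561 (adjusted p = 0.000338), and Tusc3 fell by 1.61. On chr17:34018371-34019394 the reverse strand, in the kinesin gene Kifc1, fell on 3 of 3 probes in scrambled cells (by 1.29 to 1.39) and on none in sponge cells, and Kifc1 fell by 1.28. On chr6:112552041-112560067 the reverse strand, 10555 bases from the DNA repair gene Rad18, fell on 4 of 5 kept probes, the most by 2.49 ± 0.20 (adjusted p = 0.000487), and Rad18 fell by 1.45. The fifth probe, seen on 5 arrays, was called higher (adjusted p = 0.00147). On chr10:66349796-66378261 the reverse strand went from -2.14 and -2.56 to -5.05 and -5.78 in scrambled cells, at least 7.21-fold lower (adjusted p = 0.000552). On chr8:41934312-41945487 1 of 4 reverse strand probes was at least 6.27-fold lower (adjusted p = 0.000379), and the other 3 did not pass (-0.46 to 0.13). Of the 16 named changes of this comparison, 14 were called under every alternative tried. Both exceptions, on chr3:86827945-86886695 and chr5:34696192-34722842, were falls in which the scrambled arrays with IL-7 differed from each other (-3.94 and -0.40 at the first, -4.12 and -1.46 at the second). The first was lost without either scrambled array that lacks IL-7, the second in 7 of the 8 fits that leave out an array.

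Withdrawal in sponge cells called fewer probes. Of the 5380, 416 (7.73%) were higher and 253 (4.70%) lower, against 7.54% and 14.4% of all probes on all 8 arrays. The median change was 0.03 against -0.06 over all. With background estimated by normexp in place of the scanner's own correction, the balance turned: 275 members rose and 312 fell, against 507 and 287 of the 7419 in the main setting. Leaving out sponge arrays moved the count of 794 most, to 238 without the IL-7 replicate 2, 255 without replicate 1 and 170 without replicate 2 of those lacking IL-7. Without either scrambled array that lacks IL-7 it was 494. Among the largest changes, the probe at chr2:180161459-180189542 (reverse strand) read 0.18 and 0.12 with and 1.72 and 1.87 without IL-7 in sponge cells, a rise of 1.64 ± 0.10 (adjusted p = 0.00257). In scrambled cells it read 1.16 and 1.06 with and 2.95 and 3.12 without, so sponge cells were lower in both media, by 0.96 ± 0.10 (adjusted p = 0.025) and 1.24 ± 0.10 (adjusted p = 0.00157). Of its region's 3 probes 2 showed this. Of the forward strand of chr6:127588224-127609749, 1 of 2 kept probes fell by 1.45 ± 0.15 in sponge cells (adjusted p = 0.00527), and the 1 kept probe of the reverse strand of chr13:16050871-16065396 by 1.30 ± 0.17 (adjusted p = 0.00689). Of the 16 named changes in this comparison, 6 were called under every alternative tried.

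Scrambled and sponge cells share no array in their withdrawal comparisons, so 1 can be read against the other. Of the 1329 lincRNA probes higher in scrambled cells, 1260 (94.8%) were above 0 in sponge cells, 381 of them called, and 1 was called lower. Among the other probes 4071 of 4368 (93.2%) were above 0, and 1445 of them were called. Of the 713 lower ones, 672 (94.2%) were below 0, 211 called, and 1 called higher, while among the other probes 6522 of 6714 (97.1%) were below 0 and 3232 were called. The changes were smaller in sponge cells, with a median of 0.38 where scrambled cells had 0.78, and of -0.32 where they had -0.63, though the probes were chosen on the scrambled values. Over all 5380 probes the correlation was 0.735, against 0.814 over the other probes, as a description over probes of the same arrays.

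**Figure D3:**
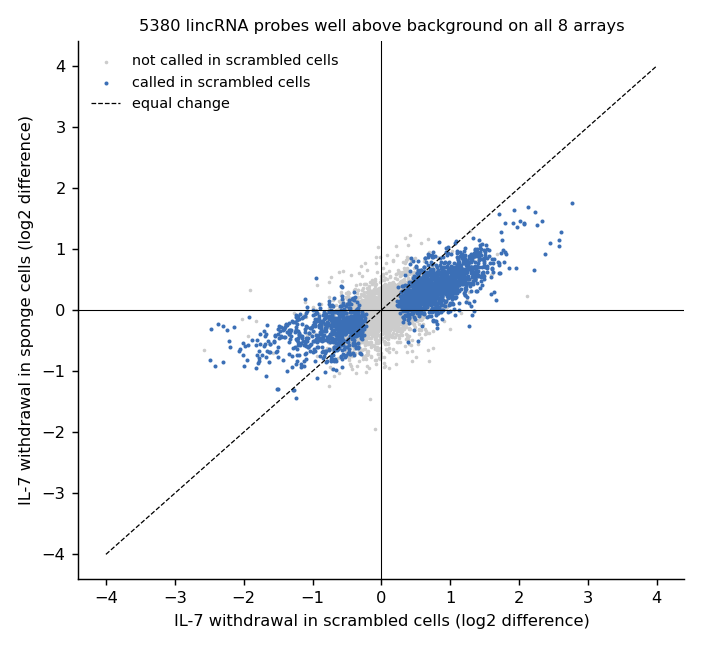
Log2 difference after IL-7 withdrawal in scrambled cells (x axis) and in sponge cells (y axis) for the 5380 lincRNA probes on all 8 arrays; blue points were called in scrambled cells and the dashed line marks equal change. Of the 1329 blue points to the right 94.8% lie above 0, and most lie below the dashed line.

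With IL-7 present the constructs differed at few lincRNAs. Of the 5380 probes 4 (0.0743%) were higher and 15 (0.279%) lower in sponge cells, against 0.145% and 0.428% of all probes. Over the 7419 members 39 were called, and this number rested on single arrays: it was 469 without scrambled with IL-7 replicate 2, and 12 and 11 without sponge with IL-7 replicates 1 and 2. It was 8 or 9 without any 1 of the arrays that lack IL-7. Without IL-7, 332 (6.17%) were higher and 832 (15.5%) lower in sponge cells, against 17.4% and 15.6% of all probes. The share lower was thus at the background and the share higher below it. The median difference was -0.13 against -0.04 over all probes. The count of 1365 members fell to 653 and 507 without scrambled replicates 1 and 2, and to 628 and 742 without sponge replicates 1 and 2, all lacking IL-7. This comparison shares arrays with both withdrawal comparisons, so regions that fell less in sponge cells, such as those of D430020J02Rik and Chek1 above, are counted here again.

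The 2 sponge comparisons share no arrays, and 23 members of 19 regions were called in the same direction in both, 6 higher and 17 lower (of 39 called with IL-7 and 1365 without). Among probes on all 8 arrays, 2 of 4 lincRNA probes higher with IL-7 and 11 of 15 lower were called alike without it, against 33 of 34 and 93 of 97 other probes. Of the 3254 regions 3 had 2 or more probes called with IL-7. On the reverse strand of chr1:135956616-135957485 all 3 kept probes were lower in sponge cells in both media. They differed by -2.48 to -1.32 with IL-7 and by -1.85 to -1.50 without, and 2 of them were well above background on all 8 arrays. In several others of the 19 regions 1 probe was called between the constructs while its neighbours passed no test. The clearest pairs are printed here, the called probe first and a probe of the same region that was not called after it.
chr9:88610391-88610450, called: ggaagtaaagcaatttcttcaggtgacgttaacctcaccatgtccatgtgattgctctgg
chr9:88598763-88598822, not called: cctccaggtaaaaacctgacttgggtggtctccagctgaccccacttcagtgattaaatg
chr19:27461519-27461578, called: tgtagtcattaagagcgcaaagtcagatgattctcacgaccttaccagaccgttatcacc
chr19:27461638-27461697, not called: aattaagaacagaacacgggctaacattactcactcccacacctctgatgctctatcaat
chr6:90760058-90760117, called: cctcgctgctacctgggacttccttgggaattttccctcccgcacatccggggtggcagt
chr6:90760118-90760177, not called: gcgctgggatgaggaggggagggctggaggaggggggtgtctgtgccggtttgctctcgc

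On the forward strand of chr9:88575075-88611650, in the interval of Mthfsl but on its other strand, the called probe read 3.59 and 3.86 in scrambled cells with IL-7 and 4.02 and 3.96 without. In sponge cells it read -5.70, -6.65, -5.94 and -5.67, none well above background. Sponge cells were at least 481-fold lower with IL-7 (adjusted p = 0.000667) and at least 666-fold lower without (adjusted p = 0.000556). The other 2 kept probes of the region differed by 0.07 to 0.44 between constructs and passed no test. IL-7 made no called difference at the called probe in either construct (0.27 and 0.37).

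The called probe on the forward strand of chr19:27448093-27462793 read -2.06, -1.91, -1.71 and -2.23 in scrambled cells (with, then without IL-7) and -7.09, -6.94, -7.16 and -7.39 in sponge cells. It was at least 9.21-fold lower in sponge cells with IL-7 (adjusted p = 0.000753), and it was not well above background in sponge cells without IL-7 either (adjusted p = 0.000861). The probe printed under it differed by -0.22 and -0.23. On the forward strand of chr6:90745692-90777977 the called probe was higher in sponge cells: -2.86 and -2.17 against 1.72 and 1.64 with IL-7, and -1.93 and -2.23 against 1.73 and 2.17 without. These are differences of 4.19 ± 0.27 (adjusted p = 0.00674) and 4.03 ± 0.27 (adjusted p = 0.00143), and the call with IL-7 was lost without either sponge array of that medium. The next probe, whose first base follows its last, differed by 0.22 and -0.06.

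On chr6:54591416-54597566 1 of 2 kept probes of the reverse strand, beside Plekha8, was lower in sponge cells by 2.77 ± 0.10 with and 2.65 ± 0.10 without IL-7 (adjusted p = 0.000753 and 0.000925). On the forward strand of chr4:132641388-132645061 1 of 3 kept probes was lower by 1.79 ± 0.12 (adjusted p = 0.00809) and 2.06 ± 0.12 (adjusted p = 0.00143). On the forward strand of chr11:48603904-48611829, 7674 bases from Rack1, a probe read 4.51 to 4.75 on the 4 sponge arrays and -5.54 to -1.38 on the scrambled arrays, which differed from each other by replicate. It was higher in sponge cells by 7.45 ± 1.29 without IL-7 (adjusted p = 0.00922), a call lost without scrambled replicate 2 or either sponge replicate of that medium, and it did not pass with IL-7 (adjusted p = 0.0656). A probe of the reverse strand of chr2:176598132-176602354 was high on the scrambled arrays with IL-7 alone, with 1.63 and 0.85 against -5.67 and -5.63 without IL-7 and -7.33 to -4.32 in sponge cells. It was at least 91.1-fold higher there than without IL-7 (adjusted p = 0.000924), while a probe that starts 60 bases further on read -4.23 to -3.55 on all 8 arrays. Of the 12 named changes in sponge cells with IL-7, 4 were called under every alternative, and without IL-7 8 of 12 were.

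The letters TGCTGCT pair with the seed that the 6 microRNAs share. They were searched in the probes as printed, on that strand only, and a probe covers 60 bases of a far longer RNA. They stood in 104 of 7419 members (1.40%) and in 234 of 23546 other kept probes (0.994%). Members with the letters had a median sponge difference of 0.09 with IL-7 and of 0.00 without, and members that lack them had -0.03 and -0.14. Of the 104, 2 were called higher and 0 lower with IL-7, and 12 were higher and 10 lower without. Over all members 0.148% were higher and 0.377% lower with IL-7, and 5.34% and 13.1% without. The 234 other probes with the letters had medians of 0.11 and 0.16. Of these, 6 were higher and 2 lower with IL-7, and 54 were higher and 19 lower without. Of all 23546 other kept probes, 0.1996% were higher and 0.5096% lower with IL-7, and 18.64% and 15.01% without. Other probes that lack the letters had medians of 0.02 and -0.03. The called member with the letters that differed most is on the reverse strand of chr15:68172597-68194740, with the letters in capitals.
chr15:68172751-68172810: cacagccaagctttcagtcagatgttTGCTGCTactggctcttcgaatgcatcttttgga
It read -4.59 and -4.63 in scrambled and -2.95 and -2.70 in sponge cells with IL-7, and -5.16, -5.41, -3.09 and -2.74 in the same order without. Sponge cells were above scrambled cells on every array. The difference was 1.78 ± 0.16 with IL-7 (adjusted p = 0.0174), a call lost in 5 of the 8 fits that leave out an array. Without IL-7 it was at least 5.07-fold (adjusted p = 0.00143), called in all 8.

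Whether withdrawal acted differently in the constructs was tested as the interaction, the change in sponge cells minus the change in scrambled cells. Of the 5380 probes 67 (1.25%) had a positive and 37 (0.688%) a negative interaction, against 3.94% and 0.608% of all probes. The members called positive were thus a smaller share than on the whole array. Among them were D430020J02Rik's region (2.16, adjusted p = 0.0359), the Mir363 and Mir92-2 region (1.70 at chrX:50094914-50094973, adjusted p = 0.0359, 2 of 7 probes called), the Chek1 region (adjusted p = 0.0359), the Tusc3 region (1.11) and the Kifc1 region (1.12). The Mirt1 region had -0.97 (adjusted p = 0.0371). With the repetition as a block limma called 0 members in place of 139, while 1217 had an unadjusted p under 0.05, against 1126 without the block. With no filter on dim probes it also called 0, with 909 at that unadjusted p. The count was also 0 without either sponge array of either medium or without scrambled without IL-7 replicate 2, 81 without scrambled without IL-7 replicate 1, 6 without scrambled with IL-7 replicate 1 and 366 without its replicate 2.

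The array covers many lincRNA intervals on both strands. Of 3555 intervals, 1067 had probes on both strands, with both strands kept in 668, 1 strand in 315 and 0 in 84. In 478 both strands had a probe on all 8 arrays, and the brightest such probe stands for each strand here. After withdrawal in scrambled cells both strands were called in 71, in the same direction in 49 and in opposite directions in 22. The correlation of the strands' changes was 0.12 over the 478 intervals, as a description. On chr17:46972160-46997919 the forward probe read 4.14, 4.01, 3.92 and 4.04 with IL-7 and 3.62, 3.54, 3.61 and 3.75 without, while the reverse probe read 2.49, 2.57, 2.82 and 2.57 with and 3.33, 3.45, 3.09 and 2.96 without. In scrambled cells this forward probe fell by 0.50 ± 0.10 (adjusted p = 0.00893) and the reverse probe rose by 0.86 ± 0.11 (adjusted p = 0.00207). It was the 1 forward probe called of 8 kept, which differed by -0.50 to 0.36 with a median of 0.14, while 7 of 9 reverse probes rose. On chr6:83368261-83407280 all 3 kept forward probes fell and all 3 reverse probes rose (-0.30 and 1.45 at the brightest), and on chr6:116092274-116144199 all 3 forward probes fell and 6 of 10 reverse probes rose (-0.33 and 1.03). The brightest probes of chr12:73838608-73862621 fell on both strands, by 0.44 and 0.36, as 1 of 3 forward and 3 of 4 reverse probes did.

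**Figure D4:**
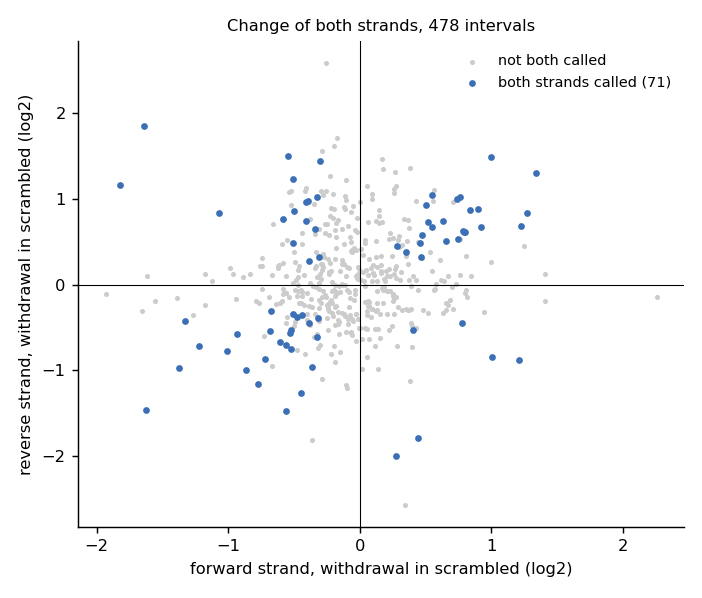
Log2 difference after IL-7 withdrawal in scrambled cells of the brightest forward (x axis) and reverse (y axis) strand probe of 478 intervals, blue where both were called. Of the 71 blue points 49 lie in the quadrants of same direction.

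Probes of 1 region mostly moved alike in withdrawal, and less so between the constructs with IL-7. In the 777 regions with 3 or more probes on all 8 arrays (3013 probes), the scrambled withdrawal changes had an SD of 0.30 within regions and of 0.59 between region means, and in 508 regions (65.4%) all probes had 1 sign. For the sponge comparison with IL-7 the SD within regions, 0.25, was larger than that between them, 0.21, and 340 regions (43.8%) had 1 sign. Without IL-7 the SDs were 0.22 and 0.45. Signal levels of probes of 1 region spanned a median range of 1.87, so levels of single probes are not set against each other. On the reverse strand of chr6:116092274-116144199 the 5 probes nearest the interval's end rose by 0.95 to 1.18 after withdrawal in scrambled cells, and of the other 5 only 1 was called (0.55, adjusted p = 0.0301).

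Where a region and a close named gene on its own strand were both called, they mostly changed in the same direction. Of 3254 regions 2234 had a named gene's probe within 50 kb and 601 had one within 5 kb on the same strand. After withdrawal in scrambled cells, region and gene were both called in 144 of 538 pairs within 5 kb on the same strand, and in the same direction in 124 (86.1%). On the opposite strand within 5 kb the count was 41 of 56 (73.2%), and from 5 to 50 kb it was 117 of 178 (65.7%). Neighbouring named genes, on any strand and both called, moved in the same direction in 1436 of 2359 pairs within 50 kb (60.9%). Within 5 kb such gene pairs did so in 497 of 818 (60.8%). Distance was not measured alike for regions and for gene pairs. For a region it ran from the whole interval, so a gene probe inside the interval counted as within 5 kb. For gene pairs it ran from probe to probe, and probes of the same gene were left out. A region could also pair with a named transcript that lies in it, such as Mirt1, so the shares are not like for like. For regions and genes within 5 kb on the same strand, the correlation of the changes was 0.51 over 538 pairs, as a description. In sponge cells 36 of 37 such pairs changed alike after withdrawal, and between constructs without IL-7 76 of 83 (91.6%) did. An example from both strands is chr17:35080914-35090009 at 1110038B12Rik: the brightest forward probe fell by 0.53 ± 0.07 and the brightest reverse probe by 0.57 ± 0.07 in scrambled cells, by 0.77 and 0.93 in sponge cells, and the gene by 0.31 and 0.74. They were the only probes called lower in scrambled cells of 5 forward and 7 reverse ones, whose medians were 0.01 and -0.07, and 1 reverse probe was called higher. The files do not tell a separate transcript from unspliced or extended RNA of the gene, and this was not tested.

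**Figure D5:**
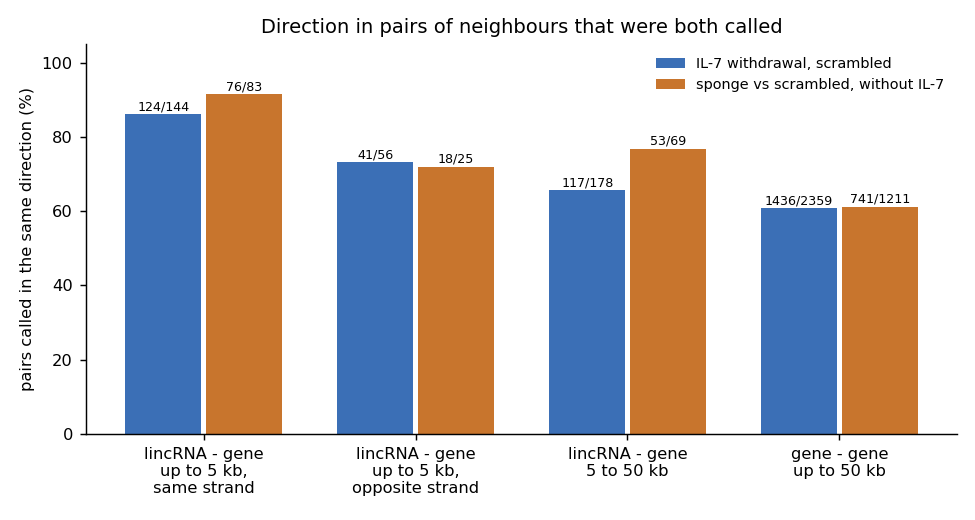
Percent of neighbour pairs, both called, that changed in the same direction (y axis) for lincRNA regions and their nearest named gene by distance and strand, and for pairs of named genes; blue is IL-7 withdrawal in scrambled cells and orange the sponge comparison without IL-7, with counts above the bars. The share is highest within 5 kb on the same strand, at 86.1% and 91.6%. Distance runs from the whole interval for regions and from probe to probe for gene pairs.

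Long noncoding RNAs that the array reads through gene probes were taken from a list of 36, of which 28 were on the array and 23 were kept. After withdrawal in scrambled cells 7 rose and 6 fell, where 21.4% of all kept probes were higher and 24.8% lower. Those that fell were hosts of small nucleolar RNAs, Gas5 (by 0.84 ± 0.11, adjusted p = 0.00229), Snhg1 (by 0.79), Snhg3 (by 0.87), Snhg5 (by 0.64) and Snhg12 (by 0.51), and the microRNA host Mir17hg (by 0.60). Hosts of both kinds were also among those that rose, for example the microRNA host Mir22hg (1.72 ± 0.21, adjusted p = 0.00159) and the small nucleolar RNA host Snhg7 (0.39). Malat1 (1.54), Neat1 (1.20), Airn (1.58), Jpx (0.77) and Dancr (0.28) rose as well. Snhg6 did not pass (0.35, adjusted p = 0.0865). In sponge cells 3 rose and 4 fell (7.31% and 12.5% of all kept probes). Between constructs with IL-7 none of the 23 passed (adjusted p from 0.0721 to 0.987), while without IL-7 6 were higher in sponge cells (Snhg1, Snhg3, Snhg5, Mir17hg, Ftx and Oip5os1) and 4 lower (Snhg7, Neat1, Mir22hg and Dancr), against 15.4% and 14.5% of all kept probes. Mir17hg was higher there by 0.65 ± 0.15 (adjusted p = 0.0225), and the microRNA host region on the X chromosome, a paralogous locus, was higher as well.

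By likeness over the 8 arrays, the probes of other regions with the highest Pearson r to the forward strand of chr10:6480075-6603900 were on chr1:63168439-63172297 (forward, r = 0.997) and chr8:108153471-108159346 (reverse, r = 0.995), and they rose by 1.04 and 1.32 in scrambled cells. With 8 arrays in 4 groups such values mainly follow the group means.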

How the data were processed

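The authors deposited Agilent Feature Extraction tables of 8 one-colour arrays (100 ng total RNA labelled with Cy3, per the labels), made with version 10.7.3.1 per the file headers and 10.7.1.1 per the submitters' processing notes. Their processed signal is an intensity on a linear scale, background subtracted and detrended within the array, per the file headers. The deposited series value table also holds intensity and has the same distribution on every array. Here log2 of the processed signal minus each array's 75th percentile went into limma (version 3.58.1, R version 4.3.3) over 30965 kept probes (4 group means, 2 arrays per group, residual df 4, Benjamini-Hochberg, threshold 0.05). The fit was tested on simulated data. The small number of arrays limits the precision, and p-values measure the spread between these clones.

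Members and lists were chosen with earlier results of these data known. Named members are the 8 largest called rises and falls of each withdrawal comparison and the 6 largest of the others, with non-overlapping arrays (a group with no array well above background ranked by its bound), the 6 brightest probes, the 6 regions with most probes, the 6 brightest strand pairs and the 3 called regions with the nearest called gene; regions with names of their own and other probes of named regions were added after their values were seen. Gene names of other probes came from RefSeq tables (27319 probes by accession, 3523 by symbol, 555 by synonym, 8033 unmatched), and a gene is its brightest kept probe. A gene given as a neighbour is instead read by the nearest kept probe, the brightest of those at equal distance. Positions are mm9, as in the files. The study's text says that repetitions used independent clones, so the replicate number was tried as a block. Deviations of same-numbered arrays correlated at 0.0228 to 0.148. Alternatives were quantile normalization, the deposited table, normexp (offset 50), no filter, only probes on all 8 arrays, the block, each array left out, 10 kb in place of 50 kb, and, for the strand pairs, all kept probes.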

Additional observations from a re-analysis of the deposited data

Results flagged for a closer look

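At 12 probes, 1 per region, withdrawal of IL-7 changed the signal differently in sponge and scrambled cells by the interaction test (change in sponge minus change in scrambled cells, limma). Positive values were 3.68 on chr7:46745641-46755766 (reverse strand), 2.16 on chr12:117623500-117643575 (reverse), 2.15 on chr13:56286339-56298089 (forward), 2.08 on chr5:77239012-77271614 (forward), 1.81 on chr3:145390505-145398253 (forward) and 1.75 on chr6:54591416-54597566 (forward). Negative values were -2.75 on chr17:88469443-88470068 (forward), -2.69 on chr12:32781477-32808567 (reverse), -2.67 on chr5:31856417-31916414 (forward), -2.26 on chr17:26911397-26917047 (reverse), -1.85 on chr1:182707418-182709037 (forward) and -1.84 on chr18:57124435-57134910 (forward). Of these probes only that of chr12:117623500-117643575 was well above background on all 8 arrays; at the other 11 the value is of signals that were partly at background, and no size of a change in RNA can be read from it. None of the 12 was called with the repetition as a block or with no filter on dim probes.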

How the results depend on the processing

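Counts of calls are over all 7419 members, and medians are over the 5380 on all 8 arrays. With no filter on dim probes the called members were 1586 (main 2453) for withdrawal in scrambled cells, 224 (794) for withdrawal in sponge cells, 6 (39) for sponge with IL-7, 666 (1365) for sponge without IL-7 and 0 (139) for the interaction, which had 0 with the replicate block. With only probes on all 8 arrays in the fit it had 227 of the 5380, where the main setting has 104. The block gave 2503, 738, 26 and 1402 for the others. Leaving out 1 array gave 1323 to 2715, 170 to 942, 8 to 469, 507 to 1610 and 0 to 366, and medians of 0.07 to 0.14, 0.0007 to 0.07, -0.12 to 0.0059, -0.18 to -0.10 and -0.13 to -0.04. The one below 0 in the main setting that turned, sponge with IL-7 (-0.06), did so without scrambled with IL-7 replicate 1. With normexp the median was 0.0015 for withdrawal in scrambled cells and -0.0541 for sponge cells, the latter turned from 0.03. For sponge without IL-7 it was -0.065 with quantile normalization and -0.0648 in the deposited table, against -0.13. With normexp the higher and lower calls were 5 and 37 for sponge with IL-7 (main 11 and 28), 241 and 1199 without (396 and 969), and 78 and 103 for the interaction (75 and 64). Region and gene changed in the same direction in 83.9% within 10 kb and 74.6% within 50 kb. The causes were not tested. Of 68 largest changes none turned, and of their values under an alternative 676 kept their call and 232 missed the threshold.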
